A study of Mus musculus with 42 samples.

Results

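The comparison described here sets mice exposed to undiluted (100%) 2,5-dihydro-trimethylthiazoline (TMT) directly against littermates exposed to 1% TMT. It takes the 3 pS6-IP-Seq libraries of the 100% group and the 3 of the 1% group, 6 of the 42 samples of the series, chosen by the odor label and paired by litter number, and covers all 1088 intact odorant receptor (OR) genes counted in each. All mice were C57BL/6 animals (C57BL/6J in the methods of the study) 20 to 22 days old, and the mice of 1 litter number were littermates of the same sex. Each was exposed for 1 h to a cassette holding TMT at a starting concentration of 1% (v/v), at 100%, or, for 3 further littermates, to no odor. Concentrations are those placed in the cassette, and the amount reaching the ORs was not measured. The 3 no odor libraries serve as a reference level only and stay outside the test.

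Each olfactory sensory neuron mainly expresses a single OR, a G protein-coupled receptor, and an odorant is encoded by the set of ORs it activates. Neuronal activity leads to phosphorylation of the ribosomal protein S6, so immunoprecipitation of phosphorylated S6 (pS6-IP) pulls down ribosome-bound mRNA, including OR mRNA, preferentially from active neurons. TMT is a volatile component of fox secretions that elicits fear behavior in mice, and stronger stimuli generally recruit ORs of lower affinity.

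Counts on intact ORs ranged from 42959 to 96588 per library at 1% TMT, from 48540 to 66681 at 100% and from 39790 to 58046 without odor. Normalized counts below are counts divided by the effective OR library size (TMM scaling over the ORs) and multiplied by the mean size of the 6 libraries. They therefore describe each OR relative to the other ORs. Relative to the authors' size factors over all genes, the 100% library held fewer OR counts than the 1% library in each litter, with 41530 against 50827, 47543 against 69501 and 60737 against 67915 counts per unit of size factor. The no odor libraries of litters 1, 2 and 3 held 45996, 44183 and 66381, each below its 1% littermate. They were above the 100% library in litters 1 and 3 and below it in litter 2. The tables list intact ORs only, so markers of other cell types were not analysed here. In these whole-tissue libraries, more captured cells of 1 type and more captured RNA per cell cannot be told apart.

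At 100% TMT, 65 ORs were higher and 13 were lower than at 1% TMT at an adjusted p below 0.05 in edgeR's quasi-likelihood test with litter as a block, 5.97% and 1.19% of the 1088 ORs tested and 7.17% together. The median log2 fold change over all ORs was -0.013. All 65 higher ORs rose and all 13 lower ORs fell in 3 of 3 litters, and the 3 libraries of 1 concentration lay entirely above those of the other for 64 and 12 of them. Across all tested ORs, every 100% library lay above every 1% library for 11.9% and below for 8.73%. The called ORs were chosen on the same 6 libraries, so their agreement over litters is a description. The increases ranged from 1.87-fold to 8.33-fold with a median of 3.04-fold, and 18 exceeded 4-fold. The decreases ranged from 1.95-fold to 3.88-fold with a median of 2.19-fold. Scaling by the all-gene size factors moved the median of all ORs to -0.42 and the calls to 48 higher and 121 lower, 4.41% and 11.1% of the ORs. The 48 were all among the 65 and the 121 included all 13, and none of the 78 ORs changed direction under it.

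**Figure D1:**
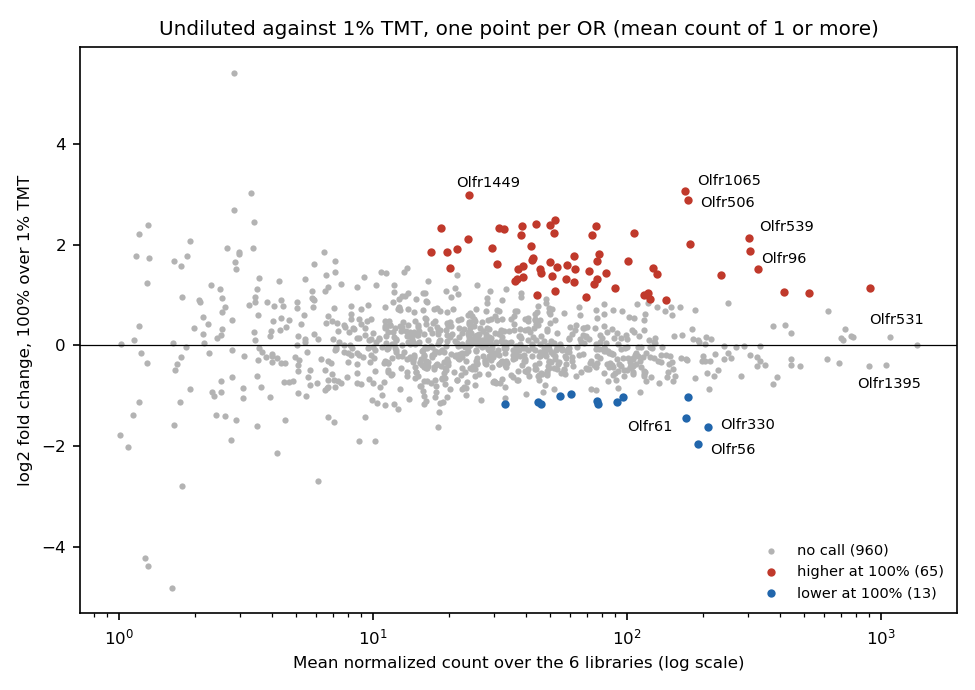
Each point is 1 of the ORs with a mean normalized count of 1 or more over the 6 libraries, with that mean on the x axis (log scale) and the log2 fold change of 100% over 1% TMT on the y axis. Red points (65) were called higher and blue points (13) lower at an adjusted p below 0.05, grey points were not called, and the wide scatter at the left belongs to ORs with few counts.

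Most calls were on ORs with higher counts. None of the 266 ORs with a mean normalized count below 10 was called, and the typical half-width of their 95% interval was 2.13 on the log2 scale. Of the 354 ORs between 10 and 30, 8 were called, all higher. Of the 324 between 30 and 100, 39 were higher and 9 lower, and of the 144 at 100 or more, 18 were higher and 4 lower, with half-widths of 0.61 and 0.56. Differences of 2-fold were therefore not detectable at this depth for the weakest ORs.

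As a group, the 65 higher ORs held about the same share of OR counts at 1% TMT as without odor. They held 5.81% to 6.17% of all OR counts in the no odor libraries, 5.93% to 5.99% in the 1% libraries and 14.0%, 16.7% and 17.6% in the 100% libraries of litters 1, 2 and 3. The 1% library lay above its no odor littermate in 3 of 3 litters for 16 of these ORs and below it in 3 of 3 for 9. Over all ORs, these patterns were found in 15.6% and 14.1%. At 100% TMT, 63 of the 65 lay above the no odor littermate in 3 of 3 litters, against 22.6% of all ORs. The median log2 ratio to no odor of the 65 was 0.098 at 1% and 1.55 at 100%. Single ORs differed, since the log2 ratio at 1% ranged from -0.97 to 1.39 and that at 100% from 0.20 to 3.11. These ORs were selected on the 1% and 100% libraries, and both ratios use the same no odor libraries, so the shares and ratios are a description.

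Olfr1065 had the smallest p of all ORs (chr2:86443958-86450591, minus strand, GRCm38, the whole annotated gene). Its normalized counts were 40.0, 36.0 and 32.5 in the 1% libraries of litters 1, 2 and 3, 229, 334 and 343 in their 100% littermates and 38.5, 36.3 and 49.8 without odor. The 1% libraries sat at the no odor level and the 100% libraries far above both, with no overlap. The log2 fold change was 3.06 ± 0.30 (SE, adjusted p = 4.82e-07), or 8.33-fold.

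Olfr506 (chr7:108610787-108615340, plus strand) showed the same pattern. Its normalized counts were 51.4, 39.1 and 34.6 at 1%, 242, 306 and 369 at 100% and 41.8, 32.9 and 28.8 without odor, a log2 fold change of 2.88 ± 0.30 (SE, adjusted p = 1.03e-06). Every 100% library stood above every 1% library, and the 1% libraries stood slightly above their own no odor littermates in each litter. Olfr57 (chr10:79028741-79036274, plus strand) gave 25.7, 26.7 and 20.6 at 1% TMT, 144, 117 and 119.9 at 100% and 43.4, 40.9 and 28.8 without odor. Here the 1% libraries were the lowest of the 3 groups in each litter, and the log2 fold change from 1% to 100% was 2.36 ± 0.28 (SE, adjusted p = 5.4e-06).

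Of the 12 higher ORs with the smallest p, 4 belong to the large OR cluster of chromosome 2. Next to Olfr1065, these are Olfr1047, Olfr1054 and Olfr1133. This cluster holds 217 of the 1088 ORs tested, and 7.83% of its ORs were called higher, against 5.97% of all ORs. Olfr1047 rose from 21.4, 21.7 and 35.7 to 72.0, 126 and 159 normalized counts, a log2 fold change of 2.18 ± 0.28 (SE, adjusted p = 1.83e-05). Olfr1054 rose from 10.0, 21.7 and 14.1 to 67.1, 78.3 and 121, a log2 fold change of 2.48 ± 0.32 (SE, adjusted p = 1.83e-05). Olfr1133 rose from 8.57, 17.9996 and 14.1 to 68.3, 71.6 and 83.7, a log2 fold change of 2.42 ± 0.32 (SE, adjusted p = 1.83e-05). In all 3 ORs the groups did not overlap, and litter 1 had the lowest 100% library. Of the 50-base stretches of Olfr1133, the read length used, 18.5% also occur in another OR, so the division of its reads among ORs is uncertain.

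Olfr539 (chr7:140659930-140678580, plus strand) stood at a higher level before the step. Its normalized counts were 59.0, 110.1 and 59.0 without odor, 110.0, 145 and 80.1 at 1% and 366, 653 and 454 at 100% TMT. Each litter was higher at 1% than without odor and higher again at 100%, and the log2 fold change from 1% to 100% was 2.14 ± 0.29 (SE, adjusted p = 1.83e-05). Olfr20 showed the same order, with 41.8, 34.1 and 53.7 without odor, 62.9, 60.8 and 86.6 at 1% and 226, 254 and 371 at 100%, and a log2 fold change of 2.01 ± 0.27 (SE, adjusted p = 1.83e-05).

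The remaining ORs among the 12 were Olfr111, Olfr180, Olfr1451 and Olfr1449. Olfr180 on chromosome 16 rose from 29.9995, 28.6 and 44.4 to 92.7, 113 and 157, a log2 fold change of 1.82 ± 0.27 (SE, adjusted p = 6.01e-05). Olfr1451 and Olfr1449 lie in the same cluster of chromosome 19. Olfr1451 rose from 4.29, 13.7 and 33.5 to 52.5, 97.3 and 97.1, with the widest spread at 1% among the 12, and a log2 fold change of 2.39 ± 0.35 (SE, adjusted p = 5.58e-05). Olfr1449 rose from 2.86, 7.45 and 5.41 to 31.7, 53.7 and 41.9, a log2 fold change of 2.97 ± 0.44 (SE, adjusted p = 6.01e-05) that rests on few counts at 1%. All 12 ORs passed the test in each of the 3 fits that leave out 1 litter, with a highest adjusted p of 0.0231 for Olfr1451.

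**Figure D2:**
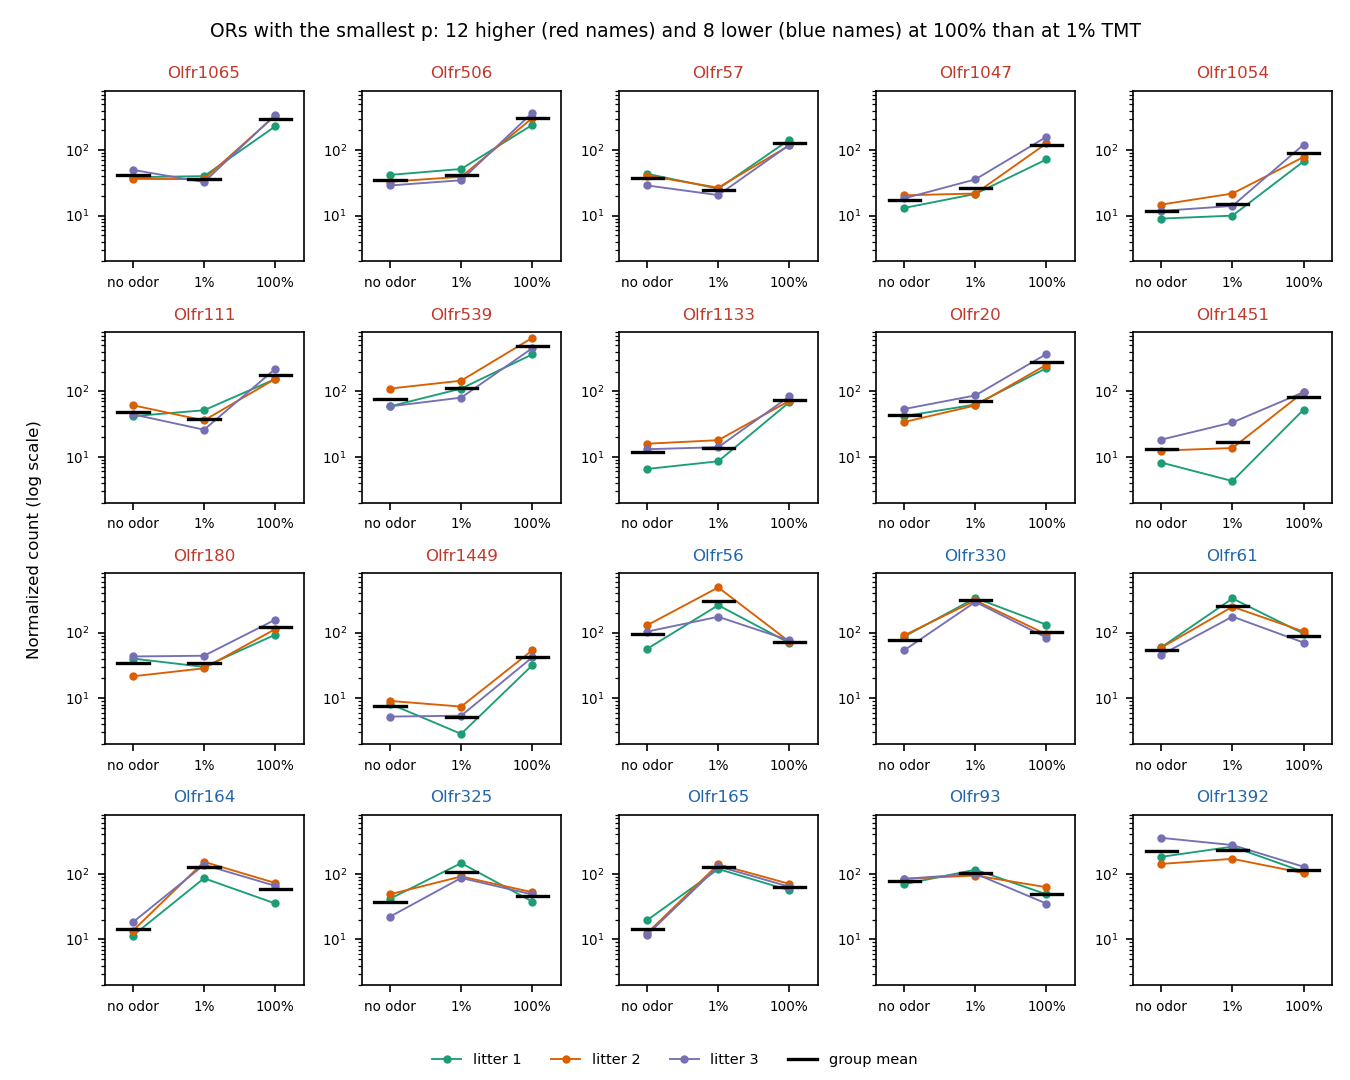
Normalized counts (y axis, log scale) of the 12 higher and 8 lower ORs with the smallest p, in the no odor, 1% and 100% TMT libraries (x axis). Lines join the 3 littermates of a litter and black bars are group means of 3 libraries. All 12 higher ORs have their highest values at 100%, whereas the lower ORs other than Olfr1392 peak at 1% in each litter.

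Olfr111 is set beside Olfr110, its closest relative, which was picked for this comparison after the values were seen. Both lie on chromosome 17 and their coding sequences are 98.1% identical, the closest relation between a called OR and one that was not called. The stretch of 30 coding bases in which they differ most is shown to make visible what reads must distinguish, with the differing bases in capitals, 5′ to 3′ on the coding strand (chr17:37530825-37530854, plus strand for Olfr111 and chr17:37499499-37499528, plus strand for Olfr110, GRCm38).
Olfr111: cccatgctgaatcctAtaatttatGcActG
Olfr110: cccatgctgaatcctGtaatttatAcGctA
In Olfr111, normalized counts were 41.8, 61.3 and 44.6 without odor, 51.4, 36.0 and 26.0 at 1% and 154, 154 and 219 at 100%, a log2 fold change of 2.23 ± 0.30 (SE, adjusted p = 1.83e-05). In Olfr110, they were 234, 255 and 201 without odor, 756, 751 and 624 at 1% and 611, 975 and 855 at 100%, a log2 fold change of 0.18 ± 0.28 (SE, adjusted p = 0.837) with a 95% interval of -0.41 to 0.76. Its 1% and 100% libraries overlapped, those of Olfr111 did not. In group means, Olfr110 stood at 3.09 times its no odor level at 1% and 3.54 times at 100%, and Olfr111 at 0.768 and 3.57 times. Of the 50-base stretches of Olfr111, 20.9% occur in another OR, as do 31.8% of those of Olfr110, and how far reads were shared between them was not tested.

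A second pair of relatives, Olfr20 and Olfr376, lies in 1 cluster of chromosome 11 with 92.3% identity of the coding sequence. The 30 coding bases that differ most are shown for the same reason (chr11:73354643-73354672, plus strand and chr11:73375648-73375677, plus strand).
Olfr20: atgaagggAgcATtGGCCagAgttAtttgT
Olfr376: atgaagggGgcCCtAATTagTgttCtttgC
Olfr376 had 124, 109 and 102 normalized counts without odor, 794, 801 and 587 at 1% and 626, 1057 and 807 at 100%. The 1% and 100% libraries overlapped and both stood far above no odor, with a log2 fold change of 0.18 ± 0.29 (SE, adjusted p = 0.838) between them and a 95% interval of -0.41 to 0.77. Its relative Olfr20 rose 4.02-fold over the same step. With the all-gene size factors the value of Olfr376 turned to -0.23, again without a call.

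Of the 64 higher ORs with a placed closest relative, 11 had a relative that was also called higher and none had one called lower. One such pair is Olfr180 and Olfr178, 94.1% identical, with log2 fold changes of 1.82 ± 0.27 and 2.11 ± 0.41 (SE). Of all ORs, 5.97% were called higher and 1.19% lower. Called ORs that are each other's closest relative are counted from both sides. Of the 65 higher ORs, 8 were more than 95% identical to their closest relative, and how far reads were shared was not tested. Among the 13 lower ORs, 2 had a closest relative that was also lower, and these are Olfr164 and Olfr165, each other's closest relative.

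The 13 ORs lower at 100% TMT did not all stand on the same side of the no odor level. The 13 held 1.75% to 2.01% of OR counts without odor, 3.09% to 3.34% at 1% and 1.17% to 1.27% at 100%. At 1% TMT, 8 of them lay above no odor in 3 of 3 litters, against 15.6% of all ORs. At 100%, 4 lay above no odor in 3 of 3 litters, against 22.6% of all ORs, and 7 below it in 3 of 3, against 19.6%. Olfr56 and Olfr325 were above no odor in some litters and below it in others. These counts are descriptions, since the same libraries chose the ORs.

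Olfr56 (chr11:48978889-49135387, plus strand) had the largest decrease. Its normalized counts were 261, 488 and 174 at 1% TMT, 69.5, 72.7 and 76.1 at 100% and 56.6, 129 and 104 without odor. The 100% libraries were nearly alike and below every 1% library, while the 1% libraries spread widely and litter 2 was the highest. Against no odor, the 100% library was above in litter 1 and below in litters 2 and 3. The log2 fold change was -1.96 ± 0.31 (SE, adjusted p = 0.000109), a 3.88-fold decrease, and ranged from -2.34 to -1.49 when 1 litter was left out. Olfr330 (chr11:58527186-58534836, minus strand) had 337, 309 and 293 at 1%, 132, 93.9 and 83.7 at 100% and 86.9, 90.8 and 53.7 without odor, a log2 fold change of -1.63 ± 0.27 (SE, adjusted p = 0.000186). Its 100% libraries stayed above no odor in each litter, at 1.34 times the no odor level in group means against 4.06 times at 1%. Olfr61 (chr7:140628970-140638798, plus strand) had 331, 248 and 175 at 1%, 96.4, 104 and 70.4 at 100% and 59.8, 59.0 and 45.9 without odor, a log2 fold change of -1.45 ± 0.27 (SE, adjusted p = 0.00059). In these 3 ORs the 1% and 100% libraries did not overlap, and each kept its call in every fit that leaves out 1 litter.

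Olfr164 and Olfr165 lie in 1 cluster of chromosome 16 and remained above no odor at both concentrations. They share 89.3% of their coding sequence. Olfr164 had 11.5, 13.6 and 18.3 normalized counts without odor, 85.7, 153 and 137 at 1% and 35.4, 72.7 and 65.7 at 100%, a log2 fold change of -1.13 ± 0.26 (SE, adjusted p = 0.00475). Olfr165 had 19.7, 12.5 and 11.8 without odor, 119, 139.7 and 129.9 at 1% and 56.1, 70.4 and 63.8 at 100%, a log2 fold change of -1.03 ± 0.25 (SE, adjusted p = 0.00928). In group means Olfr164 fell from 8.65 to 4.00 times its no odor level and Olfr165 from 8.83 to 4.33 times. None of the 50-base stretches of Olfr164 and 1.07% of those of Olfr165 occur in another OR. Without litter 1, 2 or 3, the highest adjusted p was 0.0590 for Olfr164 and 0.110 for Olfr165, and Olfr165 passed in none of these fits, with log2 fold changes of -1.03 to -0.999.

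The other ORs among the 8 with the smallest p were Olfr325, Olfr93 and Olfr1392. Olfr325, in the same cluster of chromosome 11 as Olfr330, had 146, 91.2 and 86.6 at 1% and 37.8, 52.6 and 48.5 at 100%, a log2 fold change of -1.17 ± 0.28 (SE, adjusted p = 0.00797). Its no odor values were 41.8, 48.8 and 22.3, so that the 100% library was slightly below no odor in litter 1, slightly above it in litter 2 and clearly above it in litter 3. Olfr93 had 116, 94.3 and 101 at 1% and 48.8, 62.6 and 35.2 at 100%, a log2 fold change of -1.10 ± 0.27 (SE, adjusted p = 0.00947). Its 100% libraries were below the no odor values of 69.7, 84.0 and 83.9 in each litter. Olfr1392 had 260.0, 169 and 275 at 1% and 107, 103 and 128 at 100%, a log2 fold change of -1.03 ± 0.26 (SE, adjusted p = 0.0125), and its 100% libraries were likewise below the no odor values of 182, 142 and 354. When 1 litter was left out, Olfr325 kept its call in 2 of 3 fits and Olfr93 in 1, and Olfr1392 in none (highest adjusted p 0.206, 0.207 and 0.128). The number of lower ORs fell from 13 to 4 without litter 1, 7 without litter 2 and 9 without litter 3, and all calls together from 78 to 56, 51 and 58. Shared 50-base stretches made up 18.2% of Olfr330, 29.4% of Olfr325 and 24.7% of Olfr1392, so their counts are uncertain.

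Few ORs were enriched at the lower TMT concentrations, and none of these was among those higher at 100%. In mice of other litters, 15 ORs were enriched at 0.1% TMT over no odor (1.38% of all ORs) and 4 at 0.01% (0.368%). The 4 are among the 15, and both comparisons share their no odor mice. The description of 1 of the 0.1% TMT samples, that of litter 1, names the 1% table, while its stimulant label gives 0.1% TMT, which was used here. From 1% to 100% TMT, none of the 15 was called higher and 4 were called lower, Olfr56, Olfr61, Olfr164 and Olfr165, against 5.97% higher and 1.19% lower of all ORs. In a list of only 15 ORs, having none higher is not set apart from the 5.97%. The median log2 fold change of the 15 was -0.60, against -0.013 over all ORs, and 3 of 15 were above 0. The number of lower ORs among the 15 was 9 with the all-gene size factors, 2 without litter 1 or 3 and 3 without litter 2, and none was higher in any of these fits. With the 0.1% list taken from its litters 2 and 3 only, which was added after seeing the data, it held 10 ORs, 8 of them among the 15, of which none was higher and 3 were lower. Since none of the 15 was called higher, it follows that none of the 65 higher ORs was enriched at 0.01% or 0.1% TMT. In those other mice, the median log2 fold changes of the 65 over no odor were 0.11 at 0.01% and 0.022 at 0.1% TMT. Among the lower ORs, Olfr61 had been raised at 0.1% TMT by a log2 fold change of 1.47 ± 0.24 (SE, adjusted p = 3.24e-07) and Olfr56 by 0.84 ± 0.24 (SE, adjusted p = 0.0229). Of the 7 ORs enriched at 0.1% ACT over no odor (0.643% of all ORs), again in other mice, Olfr923 was higher at 100% TMT and none was lower. Of the 15 enriched at 1% ACT (1.38%), Olfr478 was higher and Olfr56, Olfr164 and Olfr165 were lower. Medians of the 2 lists were -0.058 and -0.28. Calls in the 1% ACT list numbered 2 without litter 1 or 3 and 7 with the all-gene size factors. These 3 lower ORs are in both the 0.1% TMT and the 1% ACT list.

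Of the 7 ORs singled out for TMT in the study, 2 changed over this step, Olfr506 upward and Olfr165 downward. The others were not called. For Olfr1395, normalized counts were 149, 233 and 265 without odor, 1239, 1201 and 1073 at 1% and 669, 1269 and 842 at 100% TMT. The ranges of the 1% and 100% libraries overlapped, litter 2 being higher and litters 1 and 3 lower at 100%, and the log2 fold change was -0.38 ± 0.29 (SE, adjusted p = 0.587) with a 95% interval of -0.99 to 0.22. Olfr531 had 179, 258 and 176 without odor, 1003, 1181 and 884 at 1% and 1052, 1267 and 1123 at 100%, a log2 fold change of 0.17 ± 0.28 (SE, adjusted p = 0.838) with an interval of -0.41 to 0.75. Olfr1297 had 39.3, 42.0 and 38.0 without odor, 261, 287 and 267 at 1% and 233, 282 and 286 at 100%, a log2 fold change of -0.029 ± 0.26 (SE, adjusted p = 0.986) with an interval of -0.57 to 0.51. These 3 ORs and Olfr376 stood well above no odor in every odor library, and their intervals span less than 1 log2 unit to either side of no change. With the all-gene size factors, Olfr531 turned to -0.23 and Olfr1297 to -0.43, likewise without a call. Olfr837 was near the detection limit, with 1 count without odor in litter 1 and none in litters 2 and 3. It had 18.6, 10.6 and 5.41 normalized counts at 1% and 9.76, 15.7 and 7.61 at 100%, and its log2 fold change of 0.043 ± 0.53 (SE, adjusted p = 0.991) has an interval of -1.04 to 1.13, so a 2-fold difference was not detectable at this depth.

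Olfr1019, an OR known to respond to TMT, had 38.5, 42.0 and 36.7 without odor, 47.1, 42.2 and 37.9 at 1% and 52.5, 59.3 and 60.9 at 100%. Each 100% library was above each 1% library, but the log2 fold change of 0.45 ± 0.28 (SE, adjusted p = 0.450) did not pass the test, with an interval of -0.13 to 1.03.

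**Figure D3:**
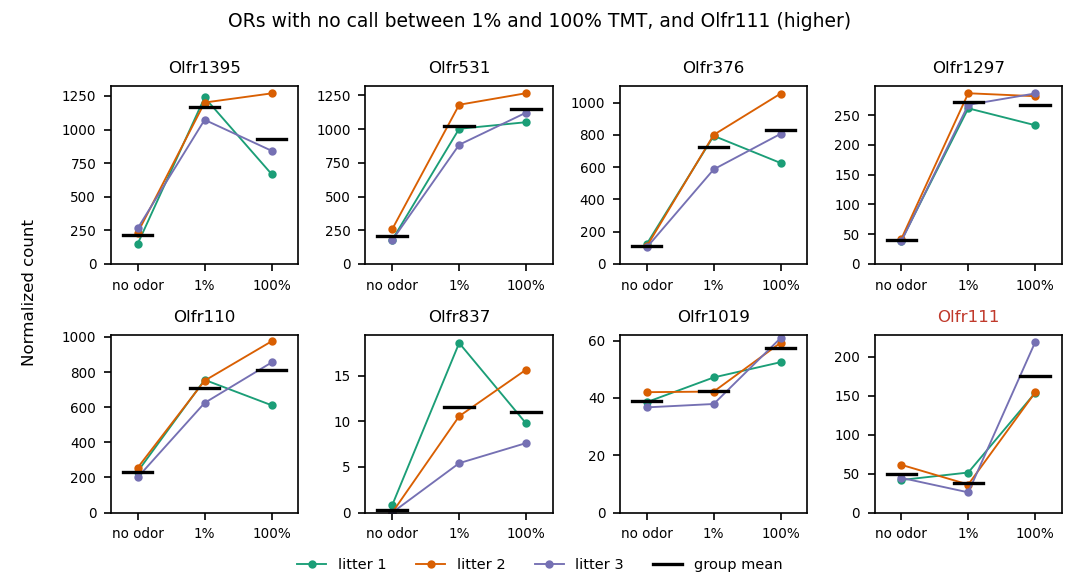
Normalized counts (y axes, linear, each panel with its own range from 0) of 7 ORs that were not called between 1% and 100% TMT and of Olfr111, in the no odor, 1% and 100% libraries (x axis). Lines join littermates and black bars are group means of 3 libraries. Olfr1395, Olfr531, Olfr376, Olfr1297 and Olfr110 rise from no odor to 1% and then stay in the same range, while Olfr111 rises at 100%.

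After the values were seen, the 31 ORs that were at least 4-fold above no odor in the 1% group means and above it in 3 of 3 litters were collected, 2.85% of all ORs. From 1% to 100%, 4 of them fell (Olfr330, Olfr61, Olfr164 and Olfr165), none rose and 27 were not called, against 1.19% lower and 5.97% higher of all ORs, with a median log2 fold change of -0.39. Together they held 2.61% to 3.18% of OR counts without odor, 11.7% to 13.0% at 1% and 8.61% to 11.0% at 100% TMT. At 100%, 30 of the 31 lay above no odor in 3 of 3 litters, against 22.6% of all ORs. They were picked on the 1% and the no odor libraries, and these enter each of these counts, so they are a description and no test is given.

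The called ORs came from both zones of the epithelium. ORs are expressed in zones, of which the dorsal and ventral ones were compared in total RNA of other samples, with 407 dorsal ORs (37.4%) and 404 ventral ORs (37.2%) among 1087 tested. Of the 65 higher ORs, 29 were dorsal, 20 ventral and 16 neither. Of the 13 lower ORs, 3 were dorsal, 9 ventral and 1 neither. In terms of the zones, 7.13% of dorsal and 4.95% of ventral ORs were higher, and 0.737% and 2.23% were lower, against 5.97% and 1.19% of all ORs. With the all-gene size factors, 24 dorsal ORs (5.90%) were higher and 41 (10.1%) lower, and 12 ventral ORs (2.97%) were higher and 63 (15.6%) lower, against 4.41% and 11.1% of all ORs. Without litter 1 or litter 2, calls among ventral ORs fell from 29 to 17. The median log2 fold change was -0.046 for dorsal and -0.071 for ventral ORs. Among called ORs, the dorsal ones with the largest changes were Olfr1065, Olfr1449, Olfr506 and Olfr1054. The ventral ones were Olfr539, Olfr56, Olfr96 and Olfr180, where Olfr96 had a log2 fold change of 1.87 ± 0.28 (SE, adjusted p = 7.23e-05). Among called ORs of neither zone, the largest changes were those of Olfr1402 (2.33 ± 0.54), Olfr1457 (2.31 ± 0.38), Olfr111 and Olfr381 (2.20 ± 0.33, all SE). Olfr1402 had 5.71, 9.93 and 2.16 normalized counts at 1% and 7.32, 44.7 and 41.9 at 100%, so that litter 1 moved little, and it was the higher OR whose groups overlapped.

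None of the 123 class I ORs was higher at 100% TMT, and 3 were lower (2.44%), against 5.97% higher and 1.19% lower of all ORs. Class I ORs, which resemble fish receptors, form 1 cluster of chromosome 7 from Olfr543 to Olfr692 (chr7:102476579-105369355). Their median log2 fold change was -0.15, with 46 of 123 above 0, while 64 of the 959 placed class II ORs were higher (6.67%) and 10 lower (1.04%). The 100% libraries of the 3 class I ORs were below their no odor littermates in each litter. Olfr67 had 71.3, 67.0 and 31.5 normalized counts without odor, 61.4, 69.5 and 57.4 at 1% and 37.8, 33.5 and 16.2 at 100%, a log2 fold change of -1.16 ± 0.31 (SE, adjusted p = 0.0154). Olfr550 had 84.4, 47.7 and 66.8 without odor, 97.1, 52.8 and 92.0 at 1% and 36.6, 35.8 and 47.6 at 100%, a log2 fold change of -0.97 ± 0.28 (SE, adjusted p = 0.0289). Olfr642 had 107, 71.5 and 122 without odor, 60.0, 68.9 and 87.7 at 1% and 19.5, 52.6 and 38.1 at 100%, a log2 fold change of -1.01 ± 0.30 (SE, adjusted p = 0.0343), with both odor groups below no odor. All 3 are dorsal. DESeq2 called none of the class I ORs, and 16 were lower with the all-gene size factors. Olfr67 and Olfr550 lost their calls whichever litter was left out, and Olfr642 kept its call in 1 of 3 such fits (highest adjusted p 0.255, 0.277 and 0.293).

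The 64 higher ORs with a position were spread over 10 chromosomes. Of 15 OR clusters with at least 20 tested members, 13 held a called OR. The share of higher ORs was greatest in the cluster of chromosome 16 from Olfr172 to Olfr209 (chr16:58759544-59363993), with 7 of 26 ORs (26.9%) and a median log2 fold change of 0.19, against 5.97% and -0.013 over all ORs. The largest changes among its called ORs were those of Olfr178 (2.11 ± 0.41), Olfr201 (1.94 ± 0.38), Olfr180 (1.82 ± 0.27) and Olfr195 (1.58 ± 0.31, all SE). Olfr164 and Olfr165 lie on the same chromosome outside this cluster and moved the other way. On chromosome 11, 4 of 28 ORs between Olfr20 and Olfr412 were higher (14.3%), Olfr381, Olfr20, Olfr1 (1.00 ± 0.26) and Olfr390 (0.92 ± 0.27, both SE), and 20 of 28 lay above 0. A second cluster of chromosome 11, from Olfr30 to Olfr225, held the higher Olfr30 beside the lower Olfr330 and Olfr325. Olfr30 had 346, 269 and 195 normalized counts without odor, 653, 583 and 460.0 at 1% and 1016, 1316 and 1387 at 100%, higher at each step in each litter, with a log2 fold change from 1% to 100% of 1.14 ± 0.29 (SE, adjusted p = 0.0133).

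On chromosome 19, 7 of 60 ORs between Olfr1417 and Olfr1505 were higher (11.7%) and none lower, with a median of 0.25, and Olfr1449, Olfr1451, Olfr1457 and Olfr1444 (1.84 ± 0.43, SE) changed most among the called ORs. On chromosome 17, 5 of 45 ORs between Olfr90 and Olfr136 were higher (11.1%) and 1 lower (2.22%), Olfr93. Of all ORs, 5.97% were higher and 1.19% lower. The largest increases on chromosome 17 were those of Olfr111, Olfr96, Olfr125 (1.69 ± 0.31) and Olfr112 (1.44 ± 0.32, both SE), among the called ORs. The cluster of 217 ORs on chromosome 2 from Olfr987 to Olfr1272 held 17 higher ORs, 7.83%, and none lower. In another of chromosome 2, Olfr338 to Olfr368, 3 of 27 ORs were higher (11.1%), Olfr338 (2.33 ± 0.36), Olfr350 (1.52 ± 0.29) and Olfr339 (1.47 ± 0.27, all SE). On chromosome 7, 5 of 65 ORs between Olfr693 and Olfr519 were higher (7.69%), among them Olfr506, Olfr478 (2.37 ± 0.37), Olfr467 (1.51 ± 0.31) and Olfr502 (1.35 ± 0.31, all SE). The lower OR of this cluster, named after its value was seen, was Olfr476 (-1.16 ± 0.34, SE).

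On chromosome 9, 5 of the 95 ORs between Olfr160 and Olfr986 were higher (5.26%), against 5.97% of all ORs. The largest among these 5 were Olfr895 (2.23 ± 0.33), Olfr143 (1.90 ± 0.43), Olfr874 (1.43 ± 0.27) and Olfr910 (1.31 ± 0.29, all SE). Of the 35 between Olfr24 and Olfr18, 2 were higher (5.71%), Olfr860 (1.98 ± 0.32) and Olfr851 (1.25 ± 0.29, both SE). On chromosome 14, 1 of 36 ORs was higher (2.78%), Olfr741 (1.05 ± 0.28, SE). On chromosome 2 between Olfr1275 and Olfr1318, 1 of 36 was lower (2.78%, against 1.19% of all ORs). It was Olfr1283 (-1.13 ± 0.31, SE), and 25.6% of its 50-base stretches occur in another OR. No OR was called among the 56 from Olfr9 to Olfr827 on chromosome 10 or the 20 from Olfr459 to Olfr47 on chromosome 6.

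**Figure D4:**
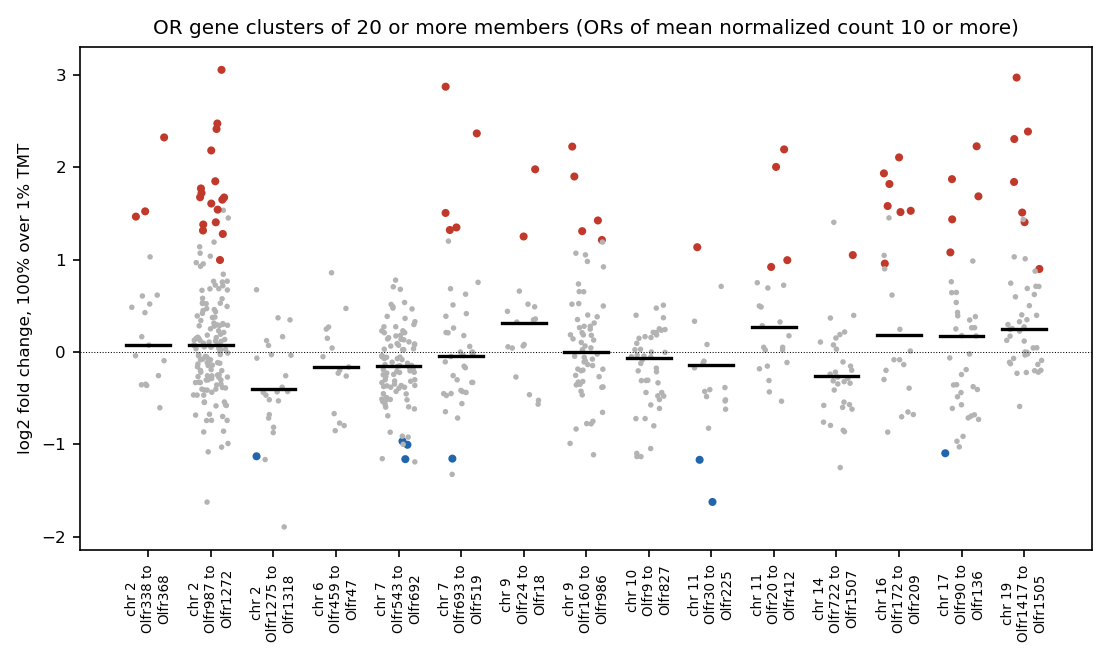
log2 fold change of 100% over 1% TMT (y axis) for the ORs of each of the 15 gene clusters with at least 20 members (x axis), showing ORs with a mean normalized count of 10 or more. Red points were called higher and blue points lower, and black bars are medians over all tested members of a cluster. Red points are spread over 11 clusters, with none in the class I cluster from Olfr543 to Olfr692.

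The same step of concentration was also measured with acetophenone (ACT), in 3 other litters of the same strain and age. From 1% to 100% ACT, 6 ORs were higher (0.551% of 1088) and none lower by the same test, with 139 ORs at an unadjusted p below 0.05. Of the 6, 4 were among the 65 ORs higher with TMT, 66.7% of the ACT list and 6.15% of the TMT list. These 4 were Olfr1065, Olfr506, Olfr1449 and Olfr895. The 65 ORs had a median log2 fold change of 0.95 over the ACT step, against 0.0077 for all ORs, and 64 of 65 were above 0, against 551 of 1088. The exception was Olfr923, an OR known to respond to ACT, at -0.67 ± 0.44 (SE, adjusted p = 0.577) with ACT and 1.21 ± 0.31 (SE, adjusted p = 0.0109) with TMT. With TMT it had 54.9, 74.9 and 138 normalized counts without odor, 47.1, 63.3 and 24.9 at 1% and 109, 83.9 and 116 at 100%. In group means it stood at 0.506 times its no odor level at 1% and 1.15 times at 100%, the smallest ratio at 100% among the 65. Its call was lost without litter 1, without litter 3 and with the all-gene size factors. Of the 13 lower ORs, 10 were below 0 over the ACT step, with a median of -0.53. The ACT libraries share no mice with the TMT libraries.

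Olfr1065 had 66.3, 60.6 and 26.5 normalized counts in the 1% ACT libraries and 288, 137 and 265 in the 100% ACT libraries, a log2 fold change of 2.18 ± 0.43 (SE, adjusted p = 0.0429). Its change was thus upward with both odorants, and the difference of the TMT step from the ACT step was 0.93 ± 0.51 (SE, 95% interval -0.12 to 1.98). Olfr506 had 52.8, 49.7 and 26.5 at 1% and 222, 129 and 119 at 100% ACT, a log2 fold change of 1.86 ± 0.34 (SE, adjusted p = 0.0371) and a difference of 1.06 ± 0.46 (SE, unadjusted 95% interval 0.12 to 2.01, adjusted p = 0.549). Olfr20 had 93.2, 59.1 and 19.4 at 1% and 244, 95.6 and 357 at 100% ACT. It was higher at 100% in each litter, by far the most in litter 3, and its difference was 0.079 ± 0.61 (SE, 95% interval -1.18 to 1.34). Olfr1133 had 12.5, 34.2 and 14.1 at 1% and 51.2, 14.9 and 16.5 at 100%, an ACT log2 fold change of 0.35 ± 0.56, and the largest difference among the 12 higher ORs at 2.14 ± 0.66 (both SE). Its ACT litters moved in both directions. Its unadjusted p was 0.00351 and its adjusted p 0.272. Among the 8 lower ORs, Olfr93 had a log2 fold change of 0.33 ± 0.48 with ACT and a difference of -1.39 ± 0.55 (both SE, adjusted p of the difference 0.530).

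No OR passed the test of the difference between the TMT step and the ACT step, in which edgeR's quasi-likelihood test had 12 libraries and litter within odorant as a block. At an unadjusted p below 0.05 there were 82 ORs (7.54%), the smallest adjusted p was 0.272, and the likelihood ratio test and DESeq2 called none either. Without litter 1 of both odorants, 17 ORs passed, 11 with a larger and 6 with a smaller TMT step, and without the ACT libraries of litter 1 alone, 31 passed, 13 and 18. Without litter 2 or 3 of both odorants none passed. Leaving out ACT litter 1 alone was chosen after seeing the data. Since the 65 ORs were chosen by the TMT step, the 63 of them with a positive difference are a description.

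**Figure D5:**
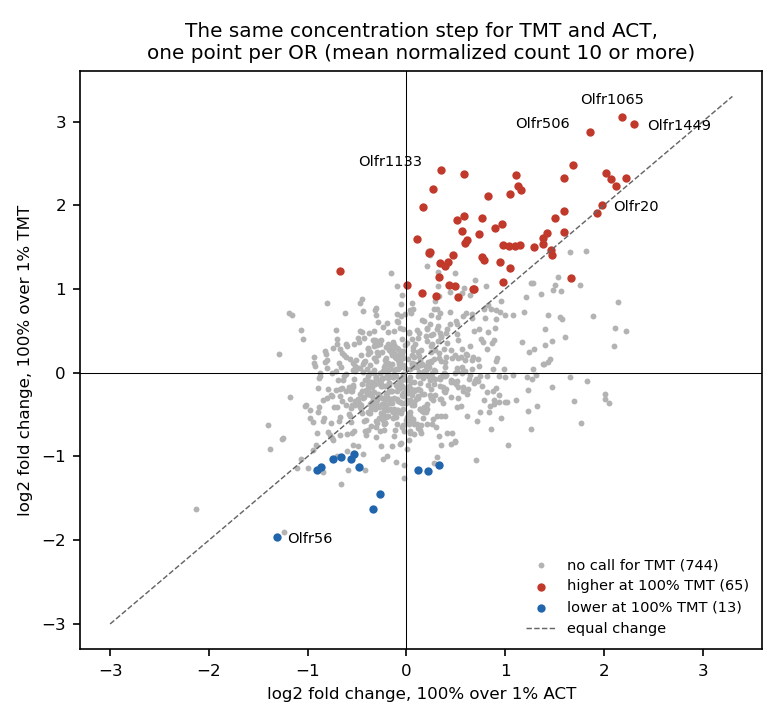
Each point is 1 OR with a mean normalized count of 10 or more, with its log2 fold change from 1% to 100% ACT on the x axis and from 1% to 100% TMT on the y axis, each in 3 litters. Red points were higher and blue points lower at 100% TMT, and the dashed line marks equal change. All red points but Olfr923 lie to the right of 0, and most lie above the dashed line.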

How the data were processed

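Reads of 50 bases from pS6-IP RNA had been aligned with STAR and quantified with RSEM by the authors, and the deposited values are expected counts per intact OR, rounded to whole numbers. Columns of the authors' DESeq means (baseMeanA and baseMeanB, a signal on the scale of normalized counts) were used only to recover the authors' all-gene size factors. The deposited columns with the authors' fold changes, p-values and false discovery rates were not used, nor was the 0.01% ACT table.

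Tables were joined by gene name. Counts of the 6 libraries were TMM scaled over 1088 ORs and tested with edgeR 4.0.16 (R 4.3.3, robust quasi-likelihood, litter block), with Benjamini-Hochberg adjustment over all 1088 ORs and a threshold of 0.05. The SE is the log2 fold change divided by the square root of F, intervals are 95% intervals, and per-litter ratios used a pseudocount of 1. The 0.01% and 0.1% TMT, ACT, and dorsal and ventral samples were fitted in the same way, each within its own experiment. Normalized counts of the ACT libraries were scaled within that experiment. Litters pair the mice because the methods state that a replicate comprised littermates of the same sex. Same-litter deviations correlated at 0.057, 0.052 and 0.025 over the 820 ORs with a mean count of 10 or more, against -0.048 to 0.005 for different litters. Deviations were taken from the mean of the 3 libraries of a group, so the different-litter values are not independent of the same-litter ones. Positions and coding sequences are from GRCm38 with GENCODE M21, which placed 1082 of the 1088 ORs. Identity comes from global alignment of the longest coding sequences.

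Named were the 12 higher and 8 lower ORs with the smallest p, the ORs singled out in the study, and the ORs of largest change in each list or cluster. Members and lists were chosen with earlier results of these data known. Steps were tested on data simulated without differences between litters, which cannot test the litter block. Alternatives covered scaling, filters, DESeq2 1.42.0, the likelihood ratio test, 9 or 18 libraries, the block and each litter left out. Leaving out the ACT libraries of litter 1, and litter 1 behind the 0.1% TMT list, was added after seeing the data. P-values measure the spread of the within-litter difference over 3 litters, with variance estimated partly from the other ORs. Depth limits weakly expressed ORs.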

Additional observations from a re-analysis of the deposited data

How the results depend on the processing

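The calls at 100% against 1% TMT, 78 in all with 65 higher and 13 lower, moved most with the all-gene size factors (169, with 121 lower). Without TMM scaling 20 were lower, and with the likelihood ratio test 24. With fits of 9 or 18 libraries, 19 were lower in either case. DESeq2 called 64 and edgeR with a minimum mean count called 75. Without the litter block (no pairing), 86 ORs were called, 68 higher and 18 lower, and 77 of the 78 remained. Leaving out 1 litter gave 51 to 58 calls in all, 44 to 52 higher and 4 to 9 lower. Of the 65 higher ORs, 36 were called in each of these 3 fits and 6 in none. Of the 13 lower ORs, 3 were called in each and 5 in none. For the difference between the TMT and ACT steps, the fits with litters left out gave 0 to 31 calls, 0 to 13 higher and 0 to 18 lower. The named ORs were picked mostly for a small p or a large change. For the TMT step, 607 of 683 values for named ORs kept direction and side of the threshold, 66 lost the threshold and 10 reversed. For the difference from ACT, 183 of 200 kept both, 6 reversed and 11 passed the threshold only without litter 1 of both odorants or of ACT alone.

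None of the reversed values was called. Olfr1297 turned to 0.00447 in the fit of 9 libraries and ranged from -0.094 to 0.037 with 1 litter left out (0.019 without litter 2). Olfr531 and Olfr376 both turned to -0.23 with the all-gene size factors. Olfr837 turned to -0.017 without TMM scaling, -0.37 with the all-gene size factors, -0.027 without the block, and ranged from -0.25 to 0.53 with 1 litter left out (-0.097 without litter 3). For the difference from ACT, leaving out litters moved Olfr20 from -0.68 to 0.90 (-0.17 without litter 1, -0.27 without the ACT libraries of litter 1), Olfr1451 from -0.18 to 1.51 and Olfr56 from -1.21 to 0.15, and Olfr164 turned to 0.14 without the block. The causes were not tested.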
